A study of Gallus gallus with 8 samples.

Results

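The genes described here are those of chicken chromosome 27 that were read in trunk neural crest cells. A gene was included when it lay on chromosome 27 in the deposited count table and held at least 40 reads over the 8 libraries, which 270 of the chromosome's 521 annotated features did, out of 30862 features in all. Libraries came from GFP+ primary trunk neural crest cells of Gallus gallus given Cas9 guide RNAs against DLC1, PHF5A or SF3B1, or a scrambled guide RNA. There were 4 groups with 2 libraries each. Guide 1 and guide 2 against a gene gave its pair of knockout libraries, whose spread therefore mixes guide and library, while the controls are numbered as replicates. Nothing in the labels says that libraries came from separate cultures or embryos, so the p-values measure only the spread between libraries. The sources used here do not give the embryos' stage, the driver of GFP or the share of cells edited. The deposited features are Ensembl IDs without names, so the level of each targeted gene, neural crest markers and markers of other cell types were not analysed here, and the labels could not be checked against them. In sorted bulk RNA, fewer cells of a type and less RNA per cell cannot be told apart.

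Neural crest cells leave the dorsal neural tube, migrate through the embryo and form peripheral neurons, glia and pigment cells. The products of SF3B1 and PHF5A belong to SF3b, a complex within the U2 snRNP that binds the branch point of an intron during splicing, and DLC1 encodes a GTPase-activating protein. Chromosome 27 is a microchromosome, one of the small chromosomes of birds, which are dense in genes and whose genes tend to be short. RefSeq's annotation of the later assembly GRCg7b places 410 genes there, 326 of them protein coding, among them 9 HOXB genes, which set position along the body axis, 9 keratin genes and the neural crest receptor gene NGFR. None of these names could be tied to a deposited ID, so genes are given here by position on GRCg6a, the build of the count table.

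The 270 genes ran from position 1900520 to 8027214 and lay on both strands, with 141 on plus and 129 on minus. Reads were nearly all in these genes, since the 251 features left out held 670 reads together, against 4346235 in the 270. Of those left out, 194 had 0 reads and 57 had 1 to 39. Just outside the threshold the highest feature had 39 reads, and just inside it the lowest had 52. A block with almost no reads ended before position 3444226, where the features of the chromosome ran from 121425 to 8049899. Between the eighth and ninth expressed genes lay 136 features with 19 reads in all. The eighth itself, at chr27:2285045-2649729 on the minus strand, spanned 364685 bases, held only 195 reads and overlapped 33 other features, so its reads cannot be told apart from theirs with certainty. Its level was 1.32 and 1.40 CPM in DLC1 knockout, 0.886 and 1.25 CPM in PHF5A knockout, 0.903 and 1.18 CPM in SF3B1 knockout, and 0.563 and 0.628 CPM in control (CPM, a gene's reads as parts of 1000000 non-mitochondrial reads).

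**Figure D1:**
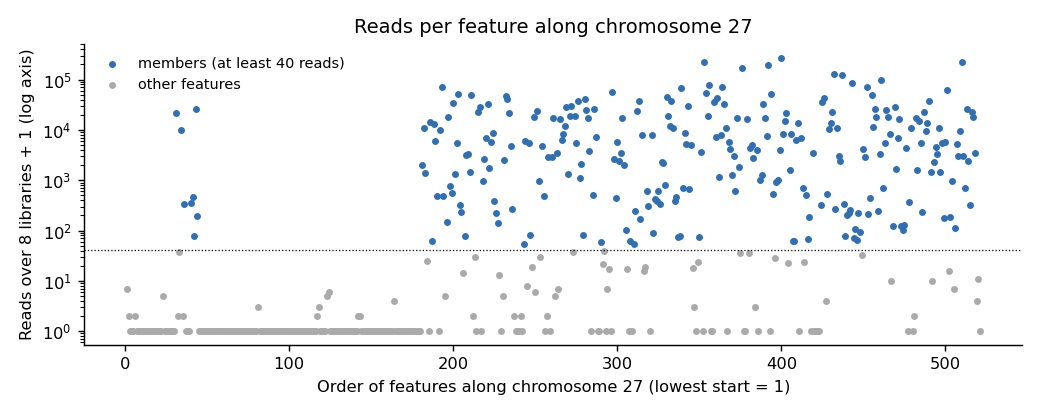
Reads summed over the 8 libraries, plus 1, on a log axis for each of the 521 features of chromosome 27 in order of start. Blue points are the 270 genes with at least 40 reads, grey points the other 251, and the dotted line marks the threshold; the run of 136 grey features between order 44 and 181 holds 19 reads.

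Levels spread widely. The median gene had 23.5 CPM over the 8 libraries, 31 genes had a mean below 1 CPM, 69 had 1 to 10, 108 had 10 to 100 and 62 had at least 100. The 5 genes of highest mean level took 24.95% of the reads of the 270. Because a CPM is not scaled by length, these levels say how much of a library a gene took, not how its transcripts compare in number with those of a longer gene.

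The gene of highest level lay at chr27:6926377-6929003 on the plus strand. It had 1338 and 1312 CPM in DLC1 knockout, 1079 and 1498 CPM in PHF5A knockout, 1373 and 1853 CPM in SF3B1 knockout, and 2020 and 2588 CPM in control, so that all 6 knockout libraries were below both controls. The next, at chr27:7918635-7920923 on the plus strand, showed the same order of groups, with 988 and 1008 CPM in DLC1 knockout, 699 and 1065 CPM in PHF5A knockout, 1392 and 1688 CPM in SF3B1 knockout, and 1809 and 2394 CPM in control. The fourth, at chr27:6854312-6857164 on the minus strand, averaged 904 ± 6.84, 887 ± 250.4 and 1157 ± 199 CPM in DLC1, PHF5A and SF3B1 knockout, and 1671 ± 339 CPM in control (SD, n = 2 each). These 3 genes fell in the mean of the 3 knockouts, at -0.95, -1.16 and -1.01 on the log2 scale (adjusted p of 0.00669, 0.00333 and 0.00573 by edgeR). Each spans under 3 kb. The third gene, at chr27:6190696-6197901, belongs to a run described below, and the last of the 5, at chr27:6571885-6623131 on the minus strand, was called in no knockout, with 895.5 ± 170.3, 1114 ± 58.8 and 784 ± 33.3 CPM in the knockouts in the same order and 870.2 ± 51.0 CPM in control.

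Total counts ran from 18226753 to 34698250 per library and were higher in the DLC1 and PHF5A libraries than in the others. Mitochondrial counts took 8.01% to 19.6% of the counts in the 6 knockout libraries and 21.4% and 25.9% in the controls. The W chromosome, which females carry, took 0.0402% to 0.259% of non-mitochondrial counts in the knockouts, 0.198% in control 1 and 0.00279% in control 2. Chromosome 27 took 2.27% ± 0.0355 of non-mitochondrial counts in DLC1 knockout, 2.41% ± 0.223 in PHF5A knockout, 2.54% ± 0.115 in SF3B1 knockout and 2.57% ± 0.0856 in control (SD, n = 2 each). Both DLC1 libraries, at 2.25% and 2.30%, were below both controls, at 2.51% and 2.63%, while the PHF5A libraries, at 2.25% and 2.56%, and the SF3B1 libraries, at 2.46% and 2.62%, overlapped the range of the controls. The Wilson 95% interval of the share was 2.24% to 2.25% for DLC1 guide 1 and overlapped that of PHF5A guide 1, and the interval of SF3B1 guide 2, 2.61% to 2.63%, overlapped that of control 2, 2.62% to 2.64%. These intervals cover counting error only.

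In DLC1 knockout more chromosome 27 genes fell than rose. Of the 265 that passed the filter on low counts, 44 fell and 14 rose (edgeR quasi-likelihood test, adjusted p under 0.05 over all 15619 genes tested), where 7.88% of all genes fell and 10.3% rose. As shares of the 265, these were 16.6% fallen and 5.28% risen. In PHF5A knockout 64 fell and 39 rose, or 24.2% and 14.7%, against 13.4% and 17.9% of all genes. In SF3B1 knockout 18 fell and 30 rose, or 6.79% and 11.3%, near the 5.03% and 11% of all genes. For the mean of the 3 knockouts 63 fell and 37 rose, or 23.8% and 14.0%, against 14% and 16.8% of all genes. Called changes of at least 2-fold were found in 26 fallen and 6 risen genes in DLC1 knockout, or 9.81% and 2.26%, against 4% and 6.3% of all genes. In PHF5A knockout they numbered 34 and 19, or 12.8% and 7.17%, against 6.18% and 11.6%. In SF3B1 knockout they numbered 7 and 25, or 2.64% and 9.43%, against 1.77% and 7.76%. Without the 2-fold limit, 11.7% of tested genes of chromosome 28 fell and 5.69% rose in DLC1 knockout. There 19.6% and 13.9% did in PHF5A knockout, and 5.69% and 9.96% in SF3B1 knockout. Chromosome 26 had 8.05% fallen and 11.1% risen, 16.1% and 15.7%, and 6.51% and 11.9% in the same order of knockouts.

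The middle of the distribution lay low as well. The median log2 fold change of the 265 genes came to -0.13 after knockout of DLC1, to -0.22 after that of PHF5A and to -0.10 after that of SF3B1, where the median of all genes was 0.10, 0.10 and 0.04. On the neighbouring microchromosomes the medians were 0.05, -0.001 and 0.09 for chromosome 26 and -0.07, -0.11 and 0.005 for chromosome 28, in the same order of knockouts. These signs depend on the scaling. When libraries were scaled by their non-mitochondrial total alone, the chromosome 27 medians were 0.04, 0.02 and 0.16, against 0.28, 0.35 and 0.31 for all genes, and the calls were 30 fallen and 27 risen in DLC1 knockout, 39 and 56 in PHF5A knockout, and 7 and 48 in SF3B1 knockout. Of the chromosome 27 genes called under this scaling, 47.4%, 58.9% and 87.3% rose, against 76.4%, 78.2% and 92.7% of all genes called. With DESeq2, fallen genes numbered 58, 69 and 43 and risen genes 13, 36 and 32. The risen were 18.3%, 34.3% and 42.7% of those called, against 47.6%, 49.5% and 51.5% over all genes. Log2 ratios of the plain CPM printed here run higher than the fitted log2 fold changes by 0.18, 0.25 and 0.26 in the same order, a gap set by that scaling.

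Fewer genes were called in most fits that left out a library, while the median of the 265 stayed below 0 in each of them. The share of all genes called in these fits, or with the W share as a covariate, is not given here. Whether chromosome 27 lost more calls than other genes was thus not tested. In DLC1 knockout 5 genes fell and 0 rose without guide 1, 12 and 4 without guide 2, 25 and 4 without control 1, and 7 and 1 without control 2. In PHF5A knockout 35 fell and 33 rose without guide 1, 63 and 28 without guide 2, 42 and 17 without control 1, and 29 and 18 without control 2. In SF3B1 knockout 0 fell and 4 rose without guide 1, 19 and 16 without guide 2, 3 and 10 without control 1, and 4 and 12 without control 2. For the mean of 3, 34 fell and 12 rose without control 1 and 20 and 12 without control 2. With the W share of each library as a covariate the SF3B1 comparison called 0 fallen and 0 risen genes, while 23 fell and 7 rose in DLC1 knockout and 55 and 35 in PHF5A knockout.

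**Figure D2:**
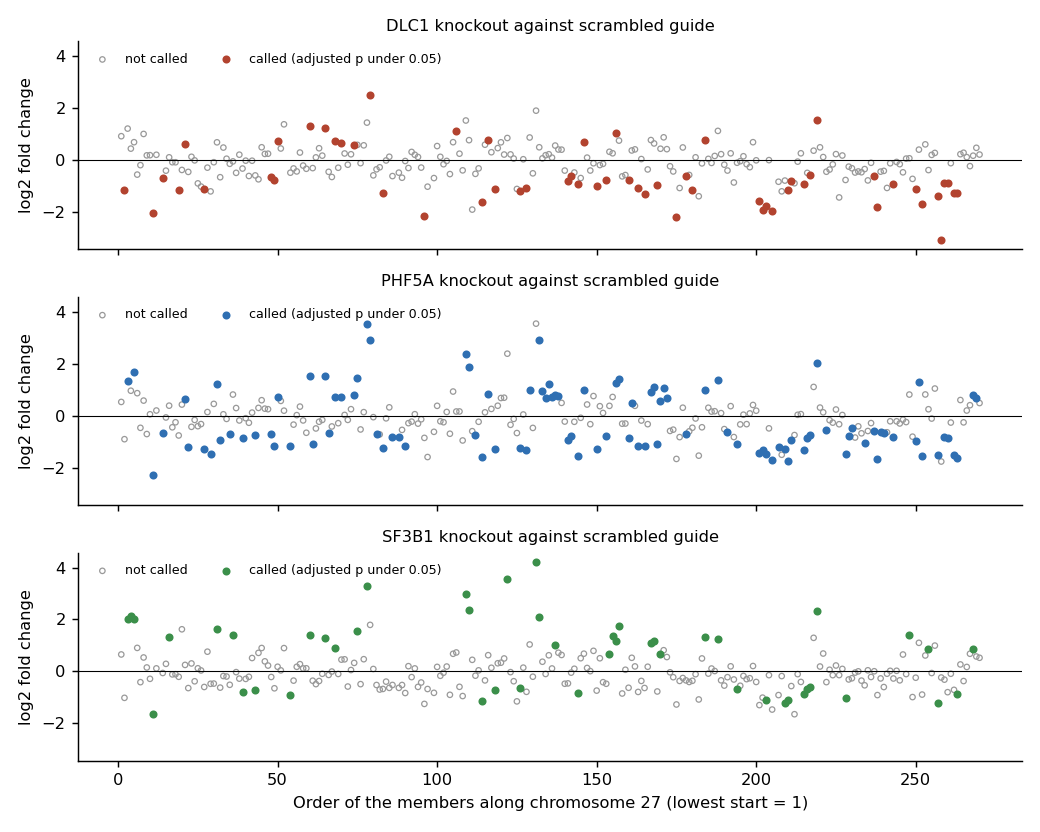
Log2 fold change against control of each chromosome 27 gene (y) by its order along the chromosome (x, 1 to 270), with a panel for DLC1, PHF5A and SF3B1 knockout. Filled points passed an adjusted p of 0.05; 44, 64 and 18 filled points lie below 0 in the 3 panels and 14, 39 and 30 above it.

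Calls were spread unevenly over genomic spans. The median chromosome 27 gene spanned 7126 bases, against 15686 for all genes tested, where span is the distance from start to end, introns included. Of 128 tested genes of 3 to 10 kb, 32 fell and 1 rose in DLC1 knockout, or 25% and 0.781%, where 13.1% and 5.04% of nuclear genes of that span on other chromosomes did. In PHF5A knockout 40 fell and 7 rose, or 31.2% and 5.47%, against 22.2% and 7.82% elsewhere, and in SF3B1 knockout 15 fell and 9 rose, or 11.7% and 7.03%, against 7.19% and 5.76%. Their median log2 fold changes were -0.33, -0.37 and -0.21, against -0.17, -0.22 and -0.13 elsewhere. For this span chromosome 26 had medians of -0.21, -0.24 and -0.20, with 10.2%, 25.4% and 10.2% of genes fallen. Chromosome 28 had -0.22, -0.33 and -0.12, with 13.0%, 21.4% and 6.11% fallen. Among the 32 genes of 1 to 3 kb, 6 fell and 2 rose in DLC1 knockout, 9 fell and 5 rose in PHF5A knockout, and 0 fell and 1 rose in SF3B1 knockout, while 15.4%, 25.5% and 8.54% of such genes elsewhere fell and 5.27%, 8.17% and 4.23% rose. In SF3B1 knockout 9 of the 32 were lower at an unadjusted p under 0.05, and DESeq2 called 8 as fallen. The medians of this class were -0.44, -0.60 and -0.25, against -0.29, -0.39 and -0.27 elsewhere. In SF3B1 knockout chromosome 27 thus did not lie lower. Medians of this class were -0.48, -0.69 and -0.15 on chromosome 26 and -0.60, -0.66 and -0.55 on chromosome 28. Among the 16 genes of 30 to 100 kb, 0 fell and 4 rose in DLC1 knockout, 1 fell and 7 rose in PHF5A knockout, and 0 fell and 5 rose in SF3B1 knockout, while 2.45%, 4.41% and 2.56% of such genes elsewhere fell and 17.0%, 31.2% and 18.3% rose. Their medians were 0.36, 0.55 and 0.30, beside 0.33, 0.43 and 0.24 for such genes elsewhere. Of 79 genes of 10 to 30 kb, 3 fell and 6 rose in DLC1 knockout, or 3.8% and 7.59%, against 6.18% and 8.26% elsewhere. In PHF5A knockout 10 fell and 19 rose, or 12.7% and 24.1%, against 11.2% and 16.6%. In SF3B1 knockout 2 fell and 14 rose, or 2.53% and 17.7%, against 4.12% and 11.9%. The medians of the 79 genes were 0.12, 0.12 and 0.15, and those of genes elsewhere 0.09, 0.11 and 0.08.

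All 7 tested genes of up to 1 kb had log2 fold changes below 0 in each knockout, with medians of -0.90, -1.16 and -0.85. Such genes elsewhere had medians of -0.37, -0.33 and -0.07, and the 3 on chromosome 26 had lower ones than chromosome 27, at -1.49, -1.90 and -1.65. Calls as fallen numbered 3, 4 and 1 of the 7, against 19.0%, 23.0% and 7.94% elsewhere. No test was made of the difference between chromosome 27 and the rest within a span class.

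**Figure D3:**
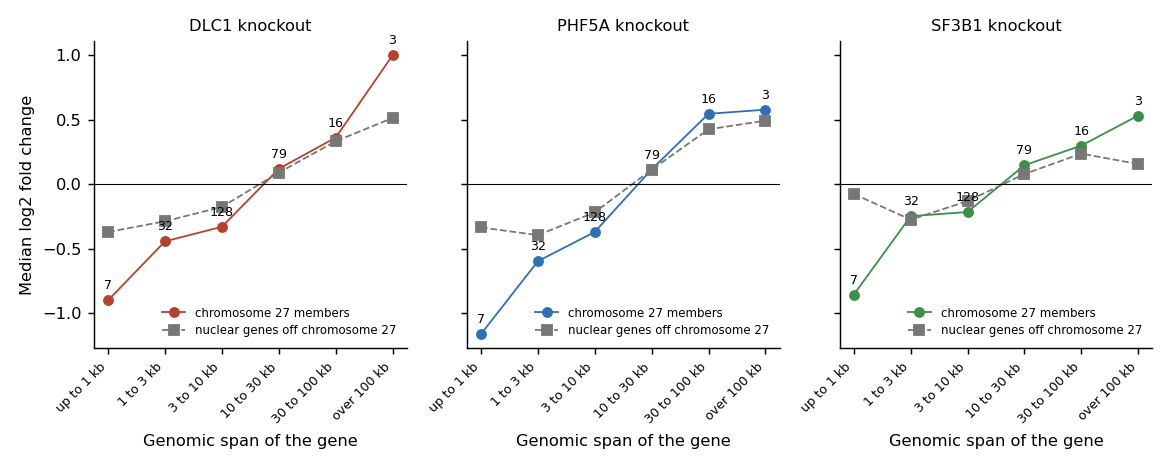
Median log2 fold change against control (y) by class of genomic span (x), with a panel for each knockout; coloured circles are chromosome 27 genes, with their number above each point, and grey squares are nuclear genes of other chromosomes. Medians are below 0 for spans up to 10 kb and above 0 for longer ones in all 3 panels, under the scaling used for the main test.

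In the mean of the 3 knockouts 37 genes rose, or 14.0% of the 265, against 16.8% of all genes. Of these, 28 had all 6 knockout libraries above both controls and at least 5 CPM. The share of all genes that met this rule is not given here. Among the 28, ENSGALG00000039978 had the highest fold change. This gene lies at chr27:5416016-5433096 on the plus strand. Its level was 4.85 and 4.31 CPM in DLC1 knockout, 15.7 and 25.4 CPM in PHF5A knockout, 21.4 and 14.0 CPM in SF3B1 knockout, and 0.423 and 2.51 CPM in control. The levels in the PHF5A and SF3B1 libraries did not overlap those in the DLC1 libraries or the controls. Its log2 fold change was 2.76 ± 0.51 (SE; edgeR adjusted p = 0.00426) for the mean of 3, 3.54 ± 0.56 in PHF5A knockout (adjusted p = 0.00252) and 3.30 ± 0.56 in SF3B1 knockout (adjusted p = 0.00839). In DLC1 knockout it was 1.44 ± 0.56, which did not pass (adjusted p = 0.0955). The direct comparison of SF3B1 with DLC1 knockout gave 1.86 ± 0.48 and did not pass either (adjusted p = 0.0521). Between PHF5A and DLC1 knockout edgeR called 0 of the 265 genes, with a lowest adjusted p of 0.106. A difference of either from DLC1 knockout was thus not called.

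ENSGALG00000003536, at chr27:7517738-7520279 on the minus strand, had 16.3 and 14.6 CPM in DLC1 knockout, 27.9 and 16.8 CPM in PHF5A knockout, 35.3 and 20.6 CPM in SF3B1 knockout, and 6.41 and 2.93 CPM in control. All 6 knockout libraries were above both controls, as the rule required. Its log2 fold change was 1.96 ± 0.34 for the mean of 3 (edgeR adjusted p = 0.00346). The call for DLC1 knockout (1.55, adjusted p = 0.0213) was lost without DLC1 guide 1 (adjusted p = 0.103), DLC1 guide 2 (adjusted p = 0.0728) or control 2 (adjusted p = 0.137), and that for SF3B1 knockout (2.32, adjusted p = 0.00801) without SF3B1 guide 1 (adjusted p = 0.0578).

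In SF3B1 knockout the second largest rise under the rule was at chr27:5886176-5890244 on the plus strand. It had 2.86 and 0.991 CPM in DLC1 knockout, 3.26 and 5.29 CPM in PHF5A knockout, 6.66 and 5.59 CPM in SF3B1 knockout, and 0.563 and 1.40 CPM in control. The SF3B1 change of 2.36 ± 0.55 (edgeR adjusted p = 0.0225) did not pass without SF3B1 guide 1 or control 1 (adjusted p = 0.103 for each).

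The next 3 risen genes in the mean of 3 knockouts had wide spans. They lay on the plus strand at chr27:4879959-5050378, chr27:5140589-5178923 and chr27:6774760-6812820. The first had 30.6 and 22.2 CPM in DLC1 knockout and 38.4 and 25.1 CPM in PHF5A knockout. It had 33.3 and 25.2 CPM in SF3B1 knockout and 10.4 and 8.17 CPM in control. Knockouts and control did not overlap, as the rule required. For the mean of 3 the log2 fold changes of these 3 genes were 1.41, 1.35 and 1.30 (edgeR adjusted p = 0.00275, 0.0045 and 0.00362). The second lost its call without control 2 (adjusted p = 0.0564).

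In the mean of 3, 63 genes fell, or 23.8% of the 265, against 14% of all genes, and 34 of them met the same rule. Among these 34, ENSGALG00000059602 had the most negative fold change. It lies at chr27:3495286-3517263 on the minus strand and had 6.42 and 4.07 CPM in DLC1 knockout, 4.93 and 4.26 CPM in PHF5A knockout, 7.45 and 6.97 CPM in SF3B1 knockout, and 22.5 and 15.4 CPM in control. The highest knockout library was below the lower control, as the rule required. The log2 fold changes were -2.04 ± 0.27 in DLC1 knockout (edgeR adjusted p = 0.0035), -2.29 ± 0.28 in PHF5A knockout (adjusted p = 0.00134) and -1.65 ± 0.27 in SF3B1 knockout (adjusted p = 0.00801), the last of which did not pass without SF3B1 guide 1 (adjusted p = 0.0611) or with the W share as a covariate (adjusted p = 0.0872). It had the most negative change of the fallen genes that met the rule in each knockout.

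ENSGALG00000003261, at chr27:7732090-7749422 on the minus strand, had 7.61 and 3.97 CPM in DLC1 knockout, 5.66 and 7.49 CPM in PHF5A knockout, 12.5 and 10.1 CPM in SF3B1 knockout, and 14.9 and 20.4 CPM in control. The SF3B1 libraries lay between those of the other knockouts and the controls. It fell by 1.81 in DLC1 knockout (edgeR adjusted p = 0.00809, and 0.0567 without control 2) and by 1.68 in PHF5A knockout (adjusted p = 0.00474), on the log2 scale. In SF3B1 knockout the log2 fold change was -0.91 (adjusted p = 0.0699).

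The 3 fallen genes that followed lay at chr27:5912666-5917220 on the plus strand, chr27:7369289-7374139 on the minus strand and chr27:7897080-7900921 on the plus strand, each under 5 kb in span. The second of them was abundant, with 351 and 283 CPM in DLC1 knockout, 349 and 466 CPM in PHF5A knockout, 435 and 610.3 CPM in SF3B1 knockout, and 962 and 933 CPM in control. Its log2 fold changes were -1.77, -1.47 and -1.11 in the same order of knockouts (edgeR adjusted p = 0.0035, 0.00257 and 0.0153). For the mean of 3, the 3 genes had -1.47, -1.45 and -1.39 (adjusted p = 0.00153, 0.00141 and 0.00256).

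**Figure D4:**
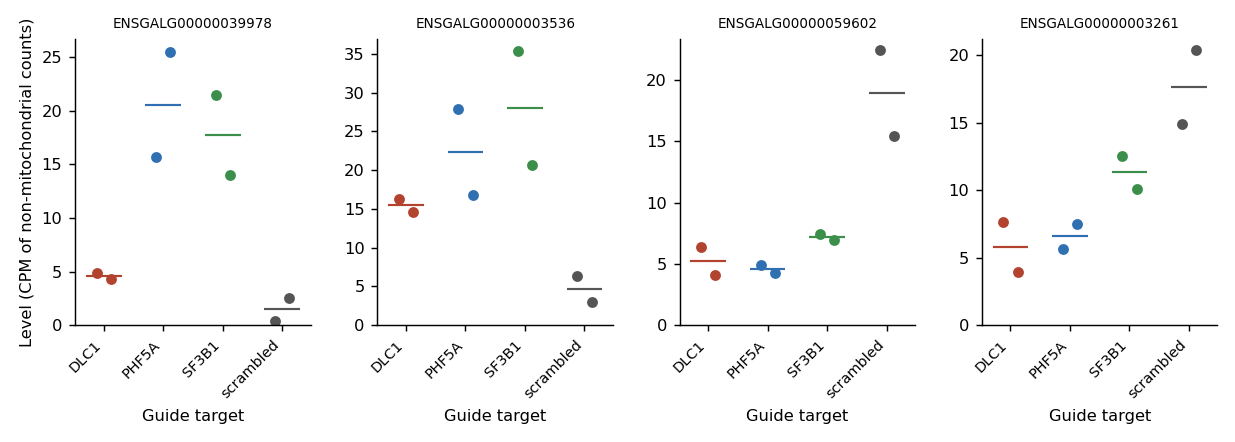
Level in CPM of non-mitochondrial counts (y, from 0) of the 2 risen and the 2 fallen genes of largest change in the mean of 3 knockouts, by guide target (x); points are libraries and lines are means of 2. The rule by which these genes were chosen required all 6 knockout libraries to lie on one side of both controls.

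Some neighbouring genes were called in the same direction and formed runs. In PHF5A knockout 26 genes stood in runs of at least 3, and adjacent tested genes were both called in the same direction in 11.7% of 264 pairs, against 6.03% over all nuclear sequences. The shares were 3.79% against 2.2% in DLC1 knockout and 4.17% against 1.97% in SF3B1 knockout. Chromosome 26 was nearer, with 3.08%, 8.08% and 3.46% in DLC1, PHF5A and SF3B1 knockout, and chromosome 28 had 2.14%, 6.07% and 1.79%. Such shares rise with the share of genes called. On chromosome 27 calls took 21.9%, 38.9% and 18.1% of tested genes in DLC1, PHF5A and SF3B1 knockout. Over all genes they took 18.2%, 31.3% and 16.1%. A like count of genes in runs over the genome is not given here. The differences between chromosomes were not tested. Overlapping genes can share reads, and 66 of the 270 overlap another of them, 57 on the other strand. The sources used here do not say whether reads were counted by strand.

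The longest run rose in PHF5A knockout. It comprised 7 genes in 107.2 kb from 6173057 to 6280215, all on the plus strand, with log2 fold changes of 0.70 to 2.91 and a median of 0.80. The first, at chr27:6173057-6189607, had 9.54 and 5.09 CPM in DLC1 knockout, 27.3 and 54.0 CPM in PHF5A knockout, 33.0 and 14.6 CPM in SF3B1 knockout, and 2.82 and 6.21 CPM in control. It overlaps a gene on the minus strand, and its log2 fold change was 2.91 ± 0.52 in PHF5A knockout (edgeR adjusted p = 0.00375) and 2.11 ± 0.51 in SF3B1 knockout (adjusted p = 0.0248). The second, at chr27:6190696-6197901, is the third most abundant gene of the chromosome. It had 817 and 1075 CPM in DLC1 knockout, 1615 and 2048 CPM in PHF5A knockout, 1240.2 and 1258 CPM in SF3B1 knockout, and 836 and 776 CPM in control. Only the PHF5A change was called, at 0.94 ± 0.22 (edgeR adjusted p = 0.0112, and 0.0632 without control 2), while DLC1 knockout gave 0.06 ± 0.22 (adjusted p = 0.865) and SF3B1 knockout 0.37 ± 0.22 (adjusted p = 0.249).

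Further along the run, the gene at chr27:6206777-6211817 had 74.0 and 79.2 CPM in DLC1 knockout, 123 and 198 CPM in PHF5A knockout, 104 and 110.3 CPM in SF3B1 knockout, and 57.6 and 58.7 CPM in control. Its PHF5A change was 1.22 ± 0.23 (edgeR adjusted p = 0.00467). The sixth gene, at chr27:6248737-6273287, which overlaps the gene before it on the same strand, rose in PHF5A knockout by 0.80 ± 0.19 (adjusted p = 0.0108) and in SF3B1 knockout by 1.01 ± 0.19 (adjusted p = 0.0104), on the log2 scale. Its PHF5A call was lost without control 2 (adjusted p = 0.0753). All 7 genes were called in PHF5A knockout without guide 1, 3 without guide 2, 4 without control 1 and 3 without control 2, and all 7 were above 0 in each of these fits. Between PHF5A and either other knockout, edgeR called 0 of the 7. DESeq2 called the first, the second and the gene at 6206777 as higher in PHF5A than in DLC1 knockout (adjusted p = 5.07e-06, 0.0146 and 0.00846), and the third as lower in SF3B1 than in PHF5A knockout (adjusted p = 0.00913). With an eighth gene at chr27:6287837-6290582, the last 3 genes of the stretch formed a risen run in the mean of 3 knockouts, with log2 fold changes of 0.51 to 0.79, of which 0 were called without control 2 and 1 without control 1.

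Lower levels were found on both sides of a gene of few reads at chr27:7380167-7384415, among genes of under 10 kb from 7349560 to 7466372. That gene had 0.253 to 0.581 CPM in the 8 libraries and log2 fold changes of -0.01, -0.49 and -0.15 in DLC1, PHF5A and SF3B1 knockout, and was not called. The first 3 genes, all on the minus strand, fell in DLC1 knockout, by 1.57, 1.91 and 1.77 on the log2 scale (adjusted p of 0.0467, 0.0167 and 0.0035 by edgeR). In PHF5A knockout they fell too, with -1.45, -1.34 and -1.47 (adjusted p = 0.042, 0.0335 and 0.00257). In SF3B1 knockout the changes were -1.30, -1.01 and -1.11, and the third passed (adjusted p = 0.0153), while the first 2 did not (adjusted p = 0.0943 and 0.119). The third is the abundant gene at 7369289 described above, while the first 2 lay under 4 CPM in each library. In DLC1 knockout 1 of the 3 was called with each of the 4 libraries left out in turn. In PHF5A knockout 2 were called without guide 2, and 1 without guide 1, control 1 or control 2.

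Beyond the gene at 7380167, 7 tested genes in a row from 7388426 to 7466372 had log2 fold changes of -0.77 to -1.73 in the mean of 3 knockouts, 5 of them on the minus strand. One further gene among them, at 7394030, did not pass the filter on low counts. The gene at chr27:7445409-7449823 had 13.6 and 16.5 CPM in DLC1 knockout, 8.82 and 11.9 CPM in PHF5A knockout, 16.1 and 16.7 CPM in SF3B1 knockout, and 30.8 and 28.2 CPM in control. Its log2 fold changes were -1.14 ± 0.23, -1.76 ± 0.24 and -1.11 ± 0.23 (edgeR adjusted p = 0.0126, 0.00173 and 0.0162). Its neighbour at chr27:7438738-7443066 had 20.2 and 27.6 CPM in DLC1 knockout, 16.4 and 19.8 CPM in PHF5A knockout, 16.8 and 21.3 CPM in SF3B1 knockout, and 41.0 and 32.7 CPM in control. In both genes the knockout libraries were all below the controls. Of the 7, 4 had a mean below 2 CPM in every group, so that their changes rest on few reads.

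**Figure D5:**
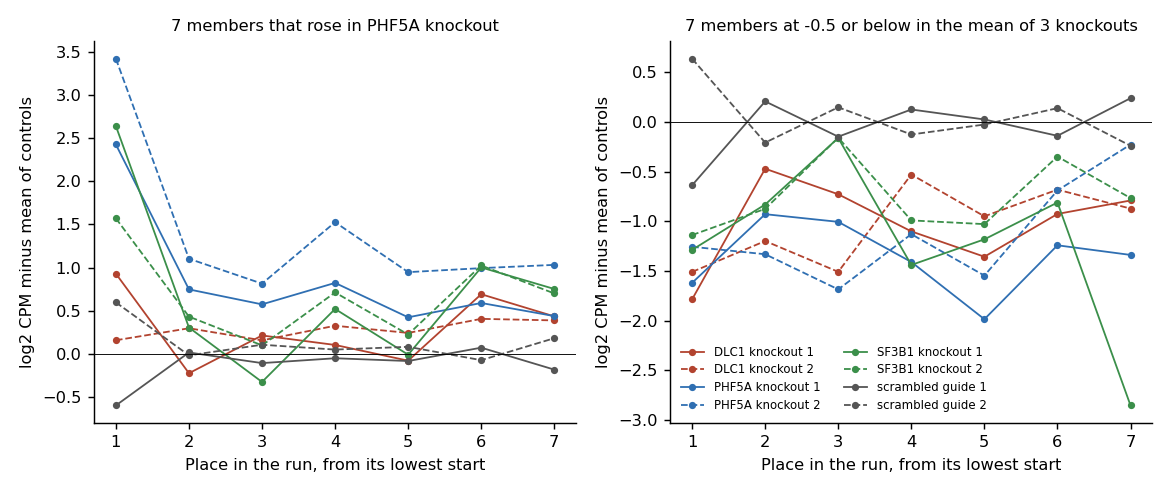
Log2 CPM of each library minus the mean of the controls (y) for the genes of 2 stretches in order of start (x): left, the 7 genes that rose in PHF5A knockout from 6173057, right, the 7 genes from 7388426 with a log2 fold change of -0.5 or below in the mean of 3 knockouts. These log2 CPM carry the scaling of the main test and a prior count of 2, unlike the plain CPM in the text. Colours are groups, solid lines guide or control 1 and dashed lines guide or control 2. On this scale the PHF5A libraries lie at 0.42 and 0.81 or above throughout the left panel. The knockout libraries lie at or below -0.158 throughout the right one.

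Shorter runs followed. In DLC1 knockout 4 genes from 7897080 to 7914791 fell, with log2 fold changes of -0.89 to -3.08. The most negative was at 7903309, a gene with 112 reads over the 8 libraries, so that its change rests on few reads. Without DLC1 guide 1, DLC1 guide 2 or control 2, 0 of the 4 were called, with fold changes of -0.84 to -3.73, -0.87 to -2.70 and -0.59 to -3.20. Without control 1, 3 were called. In the mean of 3 knockouts the same genes had -0.67 to -1.70, and the gene at 7903309 was not called. Their median log2 CPM relative to the mean of the controls, with the scaling of the main test, was -1.10 and -1.23 in DLC1 knockout. It was -1.22 and -0.92 in PHF5A knockout and -0.95 and -0.43 in SF3B1 knockout. With SF3B1 guide 2 the 4 genes ran from -1.37 to 0.63 on this measure. In SF3B1 knockout 3 genes from 2036129 to 2273718, among the first expressed genes of the chromosome, rose with log2 fold changes of 2.00 to 2.15. Of these, 0 were called without SF3B1 guide 1 or control 1, 2 without SF3B1 guide 2 and 1 without control 2. The third of them, at chr27:2263951-2273718 on the plus strand, had 1.93 and 1.30 CPM in DLC1 knockout, 3.13 and 3.67 CPM in PHF5A knockout, 4.23 and 4.27 CPM in SF3B1 knockout, and 0.634 and 1.12 CPM in control. Its call in SF3B1 knockout (edgeR adjusted p = 0.0121) was lost without SF3B1 guide 1 (adjusted p = 0.0665) or control 1 (adjusted p = 0.0668).

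Also in SF3B1 knockout, 4 genes from 6640387 to 6812820 rose, with log2 fold changes of 0.66 to 1.75. The last of these, the gene at 6774760 named above, had 20.6 and 12.4 CPM in DLC1 knockout, 24.4 and 30.0 CPM in PHF5A knockout, 39.4 and 30.4 CPM in SF3B1 knockout, and 7.96 and 9.22 CPM in control. It was called in SF3B1 knockout (1.75 ± 0.26; edgeR adjusted p = 0.00606) and without each library in turn, but not with the W share as a covariate (adjusted p = 0.0901). With each of the 4 libraries left out in turn, 1 of the 4 genes was called. A fallen run of 3 overlapping or adjoining genes from 7494153 to 7510499 was called in PHF5A and in SF3B1 knockout. In PHF5A knockout 1 of the 3 was called without control 1, and all 3 without guide 1, guide 2 or control 2. In SF3B1 knockout 0 were called without guide 1 or control 1, and 1 without guide 2 or control 2. The first of them had 64.3 and 54.8 CPM in DLC1 knockout, 44.0 and 51.8 CPM in PHF5A knockout, 72.6 and 60.9 CPM in SF3B1 knockout, and 111 and 90.4 CPM in control. Its log2 fold changes were -0.94, -1.32 and -0.86 (adjusted p = 0.00925, 0.00166 and 0.014), the last lost without SF3B1 guide 1 (adjusted p = 0.079) or control 1 (adjusted p = 0.0712).

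The remaining PHF5A runs were 3 risen genes from 6929280 to 6987999, with log2 fold changes of 0.57 to 1.06, 3 fallen genes from 7653017 to 7667167, with -0.48 to -1.46, and 4 fallen genes from 7716067 to 7781223, with -0.58 to -1.68. Without control 2, 0, 0 and 1 of these genes were called, and without control 1, 1, 2 and 1. With each library left out in turn, all genes of the called runs kept the sign of their change. Calls in runs also moved with the scaling and the W share. Scaled by the non-mitochondrial total alone, 2 of 3 genes of the run at 7349560 and 2 of 4 at 7897080 were called in DLC1 knockout. In PHF5A knockout this scaling called 1 of 3 at 7349560, 1 of 3 at 7653017 and 1 of 4 at 7716067, and in SF3B1 knockout 0 of 3 at 7494153. Scaled by library size, 1 of 3 at 7494153 was called in PHF5A knockout and 0 of 3 in SF3B1 knockout. When the W share entered the fit, none of the genes in the 3 SF3B1 runs was called, 1 of 4 at 7897080 in DLC1 knockout and 6 of 7 at 6173057 in PHF5A knockout. In the mean of 3 knockouts, a stretch of 4 genes from 5497209 to 5565723 included genes not called, at 5555949 and 5558923. All 4 had log2 fold changes of -0.59 to -0.68. The first of them had 37.9 and 39.4 CPM in DLC1 knockout, 29.5 and 42.1 CPM in PHF5A knockout, 41.1 and 46.4 CPM in SF3B1 knockout, and 50.6 and 54.3 CPM in control, and was not called without control 2 (edgeR adjusted p = 0.141) or control 1 (adjusted p = 0.0556).

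By position, the last whole megabase, from 7 to 8 Mb, held 97 of the 270 genes. The median span of the tested genes in it was 5801.5 bases, against 7206 for all tested genes of the chromosome. There 22 of 96 tested genes fell and 2 rose in DLC1 knockout, or 22.9% and 2.08%, against 16.6% and 5.28% of the chromosome and 7.88% and 10.3% of all genes. In PHF5A knockout 31 fell and 6 rose, or 32.3% and 6.25%, against 24.2% and 14.7% of the chromosome and 13.4% and 17.9% of all genes. In SF3B1 knockout 10 fell and 6 rose, or 10.4% and 6.25%, against 6.79% and 11.3% of the chromosome and 5.03% and 11% of all genes, and the medians of the log2 fold change were -0.34, -0.47 and -0.24. From 6 to 7 Mb, 11 of 54 fell and 2 rose in DLC1 knockout, or 20.4% and 3.7%, 11 and 17 in PHF5A knockout, or 20.4% and 31.5%, and 2 and 11 in SF3B1 knockout, or 3.7% and 20.4%, with medians of 0.07, 0.38 and 0.18.

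Knockouts were also compared with each other. Between SF3B1 and DLC1 knockout 74 of the 265 genes had an unadjusted edgeR p under 0.05, against 4199 of the 15619 genes tested. After adjustment 7 of the 265 differed, all higher in SF3B1 knockout, where 4.98% of all genes were called, 2.52% higher and 2.46% lower. The largest difference was at chr27:6040157-6048432 on the minus strand, a gene of few reads that overlaps 2 others. It had 1.30 and 0.789 CPM in SF3B1 knockout and 0.225 and 0.0684 CPM in DLC1 knockout, a log2 difference of 2.7 ± 0.57 (edgeR adjusted p = 0.0342). The gene at chr27:3911341-3941325 on the plus strand was far more abundant, with 271 and 304 CPM in SF3B1 knockout and 131 and 68.7 CPM in DLC1 knockout. It differed by 1.47 ± 0.31 (adjusted p = 0.0331), and its PHF5A libraries, at 155 and 222 CPM, lay between. Over all 265 genes, 0 were called without DLC1 guide 2, without SF3B1 guide 2 or with the W share as a covariate, and 1 without SF3B1 guide 1.

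Between SF3B1 and PHF5A knockout edgeR called 0 of the 265 genes, against 1.11% of all genes, 0.365% higher and 0.749% lower. Its unadjusted p was under 0.05 for 47 of the 265, against 2728 of the 15619 genes tested. DESeq2 called 7 of the 265. Between PHF5A and DLC1 knockout edgeR called 0, against 0.0064% of all genes. Its unadjusted p was under 0.05 for 38 of the 265, against 1906 of the 15619 genes tested. DESeq2 called 5 of the 265. The share of all genes that DESeq2 called between knockouts is not given here. The medians of the 265 were 0.17 for SF3B1 against PHF5A knockout, 0.15 for SF3B1 against DLC1 knockout and 0.02 for PHF5A against DLC1 knockout, and those of all genes were within 0.01 of 0. Chromosomes 26 and 28 had like medians, 0.14 and 0.16 for SF3B1 against PHF5A knockout, 0.09 and 0.12 for SF3B1 against DLC1 knockout, and -0.04 and -0.05 for PHF5A against DLC1 knockout.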

How the data were processed

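RNA-seq was made from about 50000 sorted cells per treatment with the Illumina Stranded mRNA Prep kit, per the labels' protocols. FastQC 0.12.1, Trimmomatic 0.39, STAR 2.7.11b, featureCounts 1.5.3 and build GRCg6a are named, per the submitters' processing notes. The authors deposited raw counts per Ensembl ID, with position, strand and a length equal to the genomic span. The sources used here give neither the annotation release nor the strand setting. A table of 25635 RefSeq genes matched 0 IDs, so names, the lists of named genes and sequences were not used.

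All 8 libraries entered 1 fit in edgeR 4.0.16 (R 4.3.3) over all features: filterByExpr kept 15619, TMM (trimmed mean of M-values) gave the scaling, and the test was the robust quasi-likelihood F-test. P-values were adjusted by Benjamini-Hochberg over these genes. The SE printed with a log2 fold change was worked back from the test, as its absolute value divided by the square root of F. Of the 270 genes, 5 did not pass the filter. CPM here are a gene's counts as parts of 1000000 non-mitochondrial counts, with no further scaling. The log2 CPM of runs relative to the controls instead carried the TMM scaling and a prior count of 2. The floor of 3 counts was 0.0949 to 0.211 CPM, and 3 of the 270 genes were at or under 3 reads over both controls. The 2 libraries of a group differed by more than sampling noise (chi-square per degree of freedom 37.4 to 176).

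Genes named by the rule were called, with knockout libraries all above, or all below, the controls, and 5 CPM or more on average in either arm. Ordered by absolute log2 fold change, they were 5 each way for the mean of 3 knockouts and 3 each way per knockout. IDs were given for 2 each way. Up to 2 genes called each way per pair of knockouts were added, as were the 5 of highest CPM. These and the genes in runs did not have to meet the rule. Runs were at least 3 adjacent tested genes called one way, or at least 4 with a log2 fold change past 0.5 in the mean of 3 knockouts. The genes and lists were chosen with earlier results of these data known. Alternatives were other scalings, no filter, DESeq2 1.42.0, a replicate block, the W share as a covariate and leaving out each library.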

Additional observations from a re-analysis of the deposited data

Results flagged for a closer look

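The effects of SF3B1 and DLC1 knockout differed in 7 genes of chromosome 27 by a direct edgeR contrast, which brought them here. All were higher in SF3B1 knockout. They were 2.64% of the 265 tested genes, where 2.52% of all genes were called higher and 2.46% lower. Calls either way took 4.98% of all genes, 8.43% on chromosome 26 and 6.41% on chromosome 28. The gene starting at 3911341 had 271 and 304 CPM in SF3B1 knockout and 131 and 68.7 CPM in DLC1 knockout, a log2 difference of 1.47 (adjusted p = 0.0331). The gene at 4034944 had 3.89 and 3.15 CPM in SF3B1 knockout and 1.25 and 1.16 CPM in DLC1 knockout, a difference of 1.46 (adjusted p = 0.048). That at 6040157, with 1.30 and 0.789 CPM in SF3B1 knockout against 0.225 and 0.0684 CPM in DLC1 knockout, differed by 2.7 (adjusted p = 0.0342). This gene held 73 reads over the 8 libraries, and its level with DLC1 guide 2 was below that library's floor of 0.103 CPM. The gene at 6774760 had 39.4 and 30.4 CPM in SF3B1 knockout and 20.6 and 12.4 CPM in DLC1 knockout, a difference of 1.00 (adjusted p = 0.0475).

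The gene at 7716067 differed by 0.61 (adjusted p = 0.0464), with 133 and 127 CPM in SF3B1 knockout and 82.6 and 78.5 CPM in DLC1 knockout. Against control it had log2 fold changes of 0.00 in SF3B1 knockout (adjusted p = 0.991) and -0.61 in DLC1 knockout (adjusted p = 0.0222). The gene at 7811095 had 14.2 and 12.4 CPM in SF3B1 knockout and 6.58 and 4.96 CPM in DLC1 knockout, a difference of 1.12 (adjusted p = 0.0405). The gene at 7873339 had 50.3 and 55.8 CPM in SF3B1 knockout and 23.9 and 18.2 CPM in DLC1 knockout, a difference of 1.26 (adjusted p = 0.0229). The last overlaps 2 genes on the other strand.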

How the results depend on the processing

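Counts of chromosome 27 genes fallen and risen moved with scaling. With relative log expression size factors, 8 rose in DLC1 knockout, or 13.6% of those called, against 47.4% over all genes. With library size only, 21 fell and 52 rose in DLC1, 25 and 66 in PHF5A, 3 and 60 in SF3B1 knockout, and 24 and 78 in the mean of 3; the medians turned to 0.24, 0.21, 0.34 and 0.26, below 0.48, 0.53, 0.49 and 0.50 for all genes. With the non-mitochondrial total only, 27 rose in DLC1, 39 fell in PHF5A, 7 fell and 48 rose in SF3B1, and 39 fell and 58 rose in the mean of 3; the medians turned to 0.041, 0.025, 0.160 and 0.084. With library size only, the risen were 71.2%, 72.5%, 95.2% and 76.5% of those called, in the same order. Over all genes they were 89.4%, 87.7%, 97.4% and 90.0%. With the non-mitochondrial total only, the mean of 3 had 59.8%, against 79.2% over all genes. The DLC1 median was -0.20 with size factors and with DESeq2. The gene at 7716067 had 0.023 in place of -0.39 in the mean of 3 with library size only. DESeq2 called 43 fallen genes in SF3B1 knockout, and 49 fell with no filter on low counts. With the W share as a covariate, 23 fell and 7 rose in DLC1 and 0 and 0 in SF3B1 knockout. Between knockouts, SF3B1 against DLC1 gave 3 calls with library size only, 13 with the non-mitochondrial total, 44 with no filter, 31 with DESeq2 and 0 with the W share; SF3B1 against PHF5A gave 9 with no filter and 7 with DESeq2, and PHF5A against DLC1 gave 10 and 5.

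Leaving out each library in turn gave 5 to 25 fallen and 0 to 4 risen genes in DLC1, 29 to 63 and 17 to 33 in PHF5A, 0 to 19 and 4 to 16 in SF3B1, and 20 to 73 and 12 to 39 in the mean of 3. The medians ran from -0.22 to -0.12, -0.31 to -0.15, -0.24 to -0.039 and -0.22 to -0.11. Calls between knockouts were 0 to 10 for SF3B1 against DLC1, 0 to 1 for SF3B1 against PHF5A and 0 to 3 for PHF5A against DLC1. Where leaving out a library leaves 1 in a group, that library is assumed to vary like the others. The share of all genes called in these fits, or with the W share, is not given here.

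The labels number the controls as replicates and the knockouts by guide. They do not say whether a shared number marks a batch, which was not tested. Each library's deviation from the mean of its group was compared between same-numbered libraries of 2 groups. Across the tested genes these deviations had correlations of -0.22 to 0.28. Library 1 had a lower chromosome 27 share than library 2 in all 4 groups, and each knockout library a lower one than the control of its number. With the number as a replicate block, 22 genes rose in DLC1 knockout, 44 fell in SF3B1 knockout, and 30 and 8 were called for SF3B1 against DLC1 and PHF5A; no other count moved by over 1.5 times.

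The share of counts was 1.98%, 2.07% and 2.19% in DLC1, PHF5A and SF3B1 knockout and 1.96% in control with mitochondrial counts in the total, and 2.14% in DLC1, 2.38% in SF3B1 and 2.34% in control without the most abundant gene. Genes in called runs numbered 14 with size factors and 20 with DESeq2 in DLC1, 6 and 19 in SF3B1, and 32 with DESeq2 in the mean of 3, against 7, 10 and 19 in the main test. The causes were not tested. Over the fold changes of named genes and run members, 290 of 1273 gene and alternative pairs lost the call, 8 gained it and 1 reversed. Calls were lost for 52 of 95 without control 2, 42 of 95 without control 1, 41 of 102 with the W share, 30 with library size only, 20 with the non-mitochondrial total and 0 under the replicate block. Depth limits genes below 1 CPM.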
